A study of Rattus norvegicus with 6 samples.

Results

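The genes described here are 32 genes of endoplasmic reticulum stress and the integrated stress response, measured in the renal cortex of rats given carbon tetrachloride or corn oil. They were taken by name: the chaperones of the unfolded protein response, its degradation factors, its sensors and transcription factors, and the genes of the ATF4 branch. Of the 32 genes, 30 had a probe on the array and 30 were tested, out of 31190 tested transcripts. Manf, a secreted factor of the stressed endoplasmic reticulum, and Edem1, a lectin-like degradation factor, matched no probe.

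Carbon tetrachloride was given at 100 mg/kg/day for 4 weeks to 3 male Sprague-Dawley rats of the stock Crl:CD(SD), and corn oil was given for 4 weeks to 3 others. The rats were 5 weeks old when purchased. Total RNA of the renal cortex was labelled with Cy3 and hybridised to 6 Agilent 1-colour arrays, 1 per rat. Benzyl acetate stands in the design text of the series, but every treated sample is labelled with carbon tetrachloride, as is the dosing protocol, and the labels were followed.

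The endoplasmic reticulum folds secreted and membrane proteins. When unfolded proteins build up there, the sensors IRE1 (gene Ern1), ATF6 and PERK (gene Eif2ak3) start the unfolded protein response: IRE1 splices the Xbp1 messenger, ATF6 is cut to release a transcription factor, and PERK phosphorylates the translation factor eIF2. PERK shares that last step with kinases that sense amino acid shortage, haem shortage and double-stranded RNA, and the shared arm, in which ATF4 is translated and drives genes such as Asns, Trib3 and Ddit3, is called the integrated stress response. In the kidney these pathways are best known from studies of tubule injury by toxins and ischaemia. An array measures messenger level, not splicing of Xbp1, cleavage of ATF6 or translation of ATF4.

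The promoters show which of these genes carry the elements that read the 2 arms. ATF6 and XBP1 act through the endoplasmic reticulum stress element (ERSE, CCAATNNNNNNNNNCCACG) and its compact form ERSE-II (ATTGGNCCACG), and ATF4 acts with a C/EBP partner through a composite element (CARE, searched here as TGATGNAA). Windows from 250 bases before to 50 bases after the annotated start were read from RefSeq on GRCr8, on both strands. ERSE contains both short motifs CCAAT and CCACG, and ERSE-II contains CCACG and, on its other strand, CCAAT. Of the 32 genes, 26 had a window; Atf3, Atf6, Ern1, Manf, Pdia3 and Pdia6 had none. The sites are printed for the genes whose window held them, with the fixed letters of each motif in capitals and the strand of the motif as searched:
Hspa5 ERSE: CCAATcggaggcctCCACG
Hsp90b1 ERSE, upstream: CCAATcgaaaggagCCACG
Hsp90b1 ERSE, downstream: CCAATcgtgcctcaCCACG
Dnajc3 ERSE: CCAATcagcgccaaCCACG
Calr ERSE: CCAATcagggtcgaCCACG
Canx ERSE: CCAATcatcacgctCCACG
Creld2 ERSE: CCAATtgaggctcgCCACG
Derl3 ERSE: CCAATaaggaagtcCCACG
Xbp1 ERSE: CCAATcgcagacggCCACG
Herpud1 ERSE-II: ATTGGgCCACG
Dnajb11 ERSE-II: ATTGGcCCACG
Hyou1 ERSE-II, upstream: ATTGGcCCACG
Hyou1 ERSE-II, downstream: ATTGGgCCACG
Herpud1 CARE: TGATGcAA
Chac1 CARE: TGATGcAA
Trib3 CARE: TGATGtAA

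ERSE was found in 8 of the 26 genes and in 22 of 33469 promoters of the table (0.0657%). ERSE-II was found in 3 of the 26 genes and in 0.0508% of all promoters. CARE was found in 3 of the 26 genes and in 3.98% of all promoters. The shares of all promoters include these genes' own. As the genes were chosen for their place in these pathways, the counts are a description and not an independent test. Herpud1 held both an ERSE-II and a CARE, as the map of elements shows. The short parts alone were common: CCAAT was in 37.5% and CCACG in 31.6% of all promoters.

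**Figure D1:**
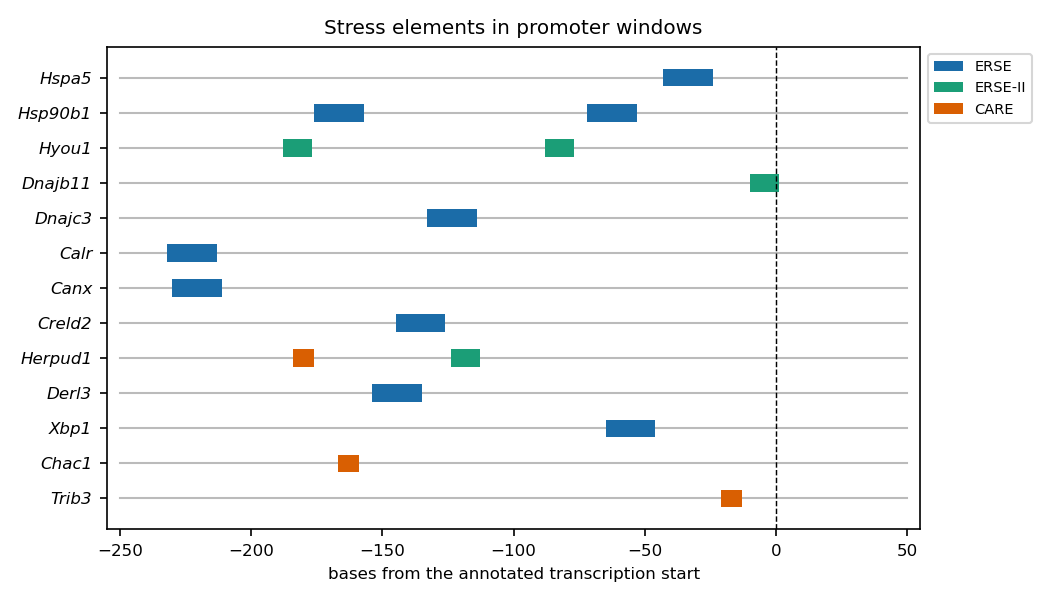
Positions of ERSE, ERSE-II and CARE in the promoter windows of the 13 genes that held at least 1 of them, in bases from the annotated transcription start (dashed line). Each bar is 1 match on either strand; Hsp90b1 held 2 ERSE and Hyou1, which has 2 windows in the table, held 2 ERSE-II in 1 of them.

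Whole windows are printed for the 3 genes with the smallest p in the chaperone, degradation and ATF4-target roles and for Hspa5, so that the elements can be read in place. Capitals mark the CCAAT box, the short motif CCACG and any CARE on either strand, as well as the whole of ERSE-II. The windows lie, on GRCr8, at chr11:97376628-97376927 (plus strand, Sdf2l1), chr3:38452766-38453065 (plus strand, Hspa5), chr19:10614658-10614957 (minus strand, Herpud1) and chr4:36769366-36769665 (minus strand, Asns):
Sdf2l1 promoter: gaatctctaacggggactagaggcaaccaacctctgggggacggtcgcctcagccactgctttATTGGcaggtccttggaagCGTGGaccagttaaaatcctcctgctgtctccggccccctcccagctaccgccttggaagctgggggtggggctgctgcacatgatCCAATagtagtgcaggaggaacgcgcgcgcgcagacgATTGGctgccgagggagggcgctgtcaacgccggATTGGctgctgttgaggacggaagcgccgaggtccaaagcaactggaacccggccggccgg
Hspa5 promoter: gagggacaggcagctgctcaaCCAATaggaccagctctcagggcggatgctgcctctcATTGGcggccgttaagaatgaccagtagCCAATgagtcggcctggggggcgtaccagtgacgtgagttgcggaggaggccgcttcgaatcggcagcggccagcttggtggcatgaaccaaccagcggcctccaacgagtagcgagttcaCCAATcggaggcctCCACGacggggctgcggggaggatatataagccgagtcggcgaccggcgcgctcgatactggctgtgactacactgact
Herpud1 promoter: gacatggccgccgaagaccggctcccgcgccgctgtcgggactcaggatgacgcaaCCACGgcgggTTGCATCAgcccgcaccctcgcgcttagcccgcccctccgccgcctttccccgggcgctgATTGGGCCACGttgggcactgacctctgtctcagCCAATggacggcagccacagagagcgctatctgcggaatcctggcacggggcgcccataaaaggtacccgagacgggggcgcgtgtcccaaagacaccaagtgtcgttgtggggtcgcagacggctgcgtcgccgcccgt
Asns promoter: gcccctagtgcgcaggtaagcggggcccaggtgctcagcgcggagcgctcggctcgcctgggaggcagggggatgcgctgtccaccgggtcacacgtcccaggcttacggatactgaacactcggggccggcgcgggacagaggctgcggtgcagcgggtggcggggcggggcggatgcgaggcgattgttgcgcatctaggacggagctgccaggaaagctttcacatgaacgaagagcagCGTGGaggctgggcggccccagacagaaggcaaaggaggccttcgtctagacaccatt

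The Sdf2l1 window held CCAAT and CCACG but no ERSE in the spacing searched, and the Asns window held none of the 3 elements. Sites outside the windows were not searched for, so a gene without a match may still carry an element elsewhere.

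The values below are log2 processed signal minus the log2 of the array's 75th percentile of signal, so 0 is the level of that percentile and different probes are not compared in level. Differences are carbon tetrachloride minus corn oil, with the SE of the limma fit and p-values adjusted by Benjamini-Hochberg over all 31190 transcripts, two-sided, with a threshold of 0.05. Replicates are described as biological in the design text, so p-values rest on the spread between rats. For each gene limma draws that spread towards the spread of all transcripts. All 30 genes were well above background on 6 of 6 arrays. Between 68.5% and 72.1% of probes were well above background per array, and correlations between arrays over the tested transcripts ran from 0.9914 to 0.9928 within carbon tetrachloride, from 0.9907 to 0.9937 between the groups and from 0.9917 to 0.9932 within corn oil. Slide 1, read in scan 1, held 2 carbon tetrachloride arrays (replicates 1 and 2) and the 3 corn oil arrays, while slide 2 and scan 2 held only the remaining treated array. Within slide 1, array row 2 was treated and row 1 was corn oil, so row and treatment cannot be told apart there. The tissue markers were present: 8 of 8 for the proximal tubule, 6 of 6 for the loop and distal nephron and 5 of 5 for podocytes were well above background on every array. In bulk tissue, fewer cells of a type and less RNA per cell cannot be told apart.

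None of the stress genes passed the test. Of 30 genes, 0 had an adjusted p under 0.05 in limma, beside 1 of 31190 transcripts (0.00321%), and the lowest adjusted p was 0.734, for Asns. At an unadjusted p under 0.05 there were 3 genes: 2 with higher values in carbon tetrachloride, Asns and Herpud1, beside 3.67% of all transcripts, and 1 with lower values, Sdf2l1, beside 2.63%. With an intensity trend and robust fitting, limma gave 0 adjusted and 5 unadjusted, 2 higher (3.35% of all transcripts in that fit) and 3 lower (2.68%). The groups did not overlap in 3 genes with higher values (Asns, Herpud1 and Derl3), where the share of all transcripts was 7.54%, and in 5 with lower values (Hspa5, Dnajc3, Sdf2l1, Sel1l and Ddit3), where it was 5.27%.

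Over the 30 genes the difference was positive in 12 and negative in 18, with a median of -0.014, and over the 16 alternatives the positive count ran from 9 to 14 and the median from -0.050 to -0.0087. Several of the 16 (the filters, the robust trended fit and the replicate block) leave the differences of these genes unchanged, and the deposited table nearly so. Over all transcripts the median was 0.0077 and 52.3% were positive. Within 1.2-fold either way lay 26 of the 30 genes, and 84.5% of all transcripts. The median size of the difference, without sign, was 0.095 in the 30 genes and 0.095 in all transcripts. The 95% interval of limma, not adjusted, stayed within 2-fold either way for 29 of the 30 genes, the exception being Derl3 (up to 2.03-fold), and within 1.5-fold for 24. The others beyond 1.5-fold were Pdia4, Atf6, Atf3, Asns and Trib3, and Atf3 had the widest interval.

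**Figure D2:**
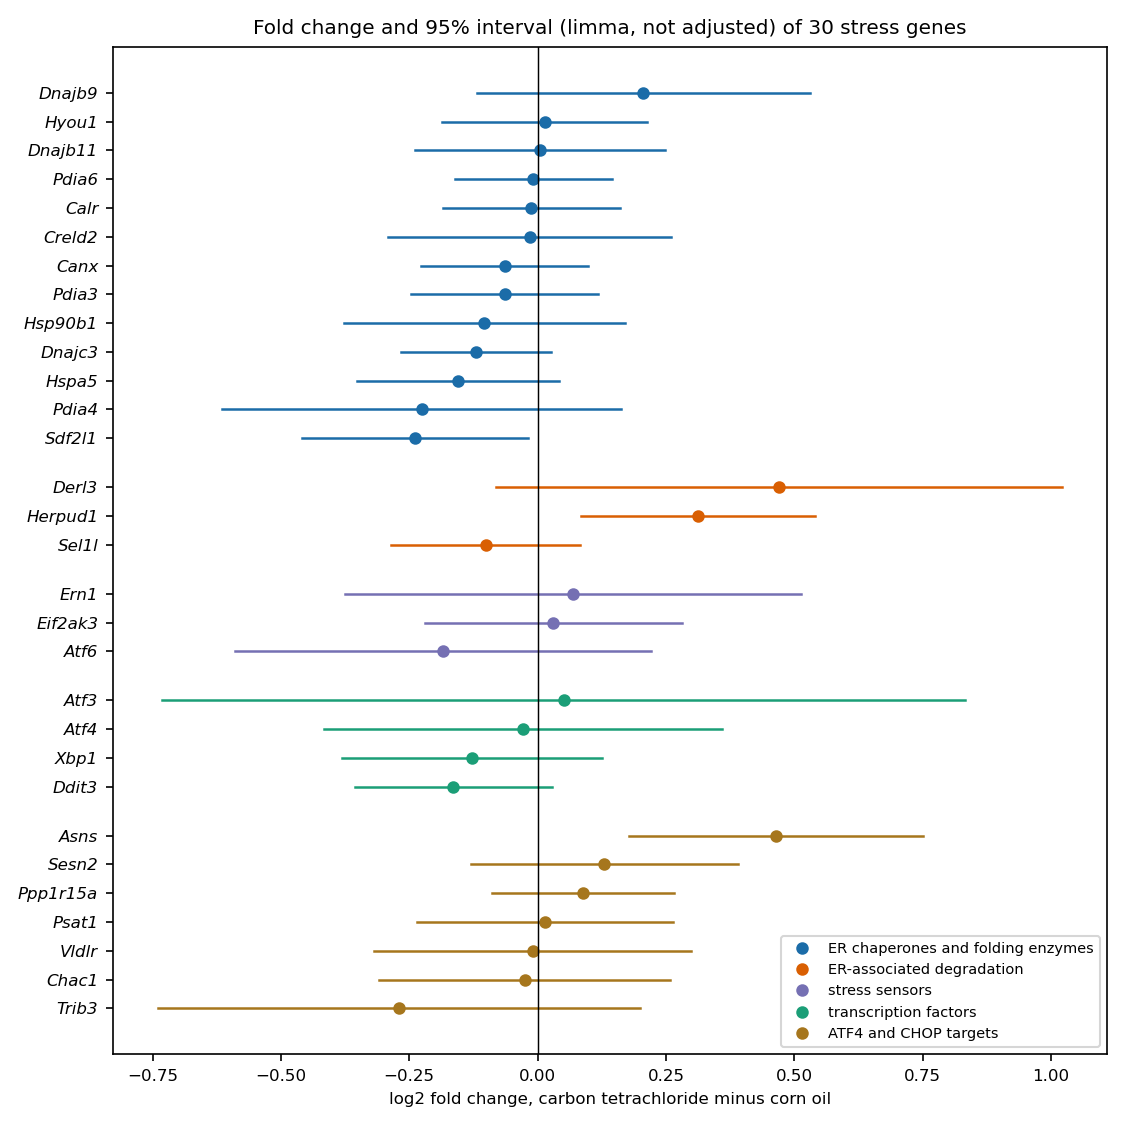
Difference in log2 signal, carbon tetrachloride minus corn oil (x axis), of the 30 stress genes by role, with the 95% interval of limma, not adjusted for the number of genes (n = 3 arrays per group). The intervals of Asns, Herpud1 and Sdf2l1 do not reach 0, and all others do.

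Among the chaperones and folding enzymes, 13 of 14 were tested, 3 had positive and 10 negative differences (1 to 5 positive over the alternatives), and the median was -0.06 (-0.07 to -0.02). Hspa5 encodes BiP, the main chaperone of the endoplasmic reticulum, which also holds the sensors inactive. Hspa5 was at 5.03, 5.26 and 5.10 on the carbon tetrachloride arrays, against 5.32, 5.26 and 5.28 on the corn oil arrays. All treated values lay below all corn oil values, but replicate 2 of carbon tetrachloride came within rounding of the lowest corn oil array. The difference was -0.16 ± 0.08 (SE, n = 3 per group; limma adjusted p = 0.811).

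Sdf2l1, a partner of BiP's cofactors that slows aggregation of its clients, was at 2.02, 1.94 and 2.11 with carbon tetrachloride, against 2.37, 2.28 and 2.14 with corn oil. The groups did not overlap, and the gap between the nearest arrays was small beside the spread of corn oil. The difference was -0.24 ± 0.09, or 0.847-fold (limma unadjusted p = 0.0374, adjusted p = 0.788). Its other probes gave -0.35 ± 0.21 and -0.20 ± 0.15, and the groups overlapped at both. The unadjusted p ranged from 0.0152 to 0.115 over the alternatives.

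Dnajc3, a BiP cofactor also known as an inhibitor of eIF2 kinases, showed the tightest groups of those that did not overlap: 2.04, 2.08 and 2.06 with carbon tetrachloride, against 2.20, 2.15 and 2.18 with corn oil. Every treated array was lower, by a small amount. The difference was -0.12 ± 0.06 (limma adjusted p = 0.798). The SDs were 0.018 with carbon tetrachloride and 0.025 with corn oil, so this SE comes largely from the spread of other transcripts.

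At the probe used, the remaining chaperones overlapped between the groups. The 2 farthest from 0 were Pdia4, a disulfide isomerase, at -0.23 ± 0.16, and Dnajb9, a BiP cofactor that also keeps IRE1 inactive, at 0.21 ± 0.13. The second probe of Dnajb9 gave 0.22 ± 0.09, and its groups did not overlap. Hsp90b1, the chaperone GRP94, differed by -0.10 ± 0.11. The lectin chaperone Canx differed by -0.06 ± 0.07, and so did Pdia3, the isomerase that works with it (-0.06 ± 0.07). Within 0.02 of 0 lay Hyou1, the exchange factor of BiP (0.014 ± 0.08), Dnajb11, a BiP cofactor (0.0051 ± 0.10), Pdia6 (-0.0082 ± 0.06), Calr, the soluble partner of calnexin (-0.012 ± 0.07), and Creld2 (-0.016 ± 0.11), and the sign of each of these changed under at least 1 alternative. None had a limma adjusted p under 0.8 at the probe used.

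The degradation factors, which move misfolded proteins out to the proteasome, had 2 positive and 1 negative difference among 3 tested of 4. Herpud1 is a membrane protein that gathers the retrotranslocation complex, and its promoter held both element types printed above. It was at 4.07, 4.12 and 4.14 with carbon tetrachloride, against 3.63, 3.84 and 3.92 with corn oil. The treated arrays lay close together above the corn oil arrays, which were spread more widely. The difference was 0.31 ± 0.09, a fold of 1.24 with a 95% interval of 1.06 to 1.45 (limma unadjusted p = 0.0155, adjusted p = 0.768). The second probe gave 0.33 ± 0.12, and the difference ranged from 0.23 to 0.37 over the alternatives, with an unadjusted p of at most 0.0431.

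Derl3, a derlin of the retrotranslocation channel known for high levels in secretory cells, was at -0.24, -0.35 and -0.07 with carbon tetrachloride, against -0.49, -0.39 and -1.19 with corn oil. The groups did not overlap, but corn oil replicate 3 stood far below the other arrays. The difference was 0.47 ± 0.22 (limma adjusted p = 0.798), and 0.22 without that array. A second probe gave 0.54 ± 0.22. Plasma and B cell markers, whose cells also use this gene, had 6 of 8 tested, 2 positive and 4 negative, with a summed level (linear, relative to the 75th percentile) of 0.568 to 0.773 with carbon tetrachloride and 0.624 to 0.827 with corn oil. Tnfrsf17 was well above background on 0 treated arrays and on 3 corn oil arrays, and at least 1.69-fold lower with carbon tetrachloride (limma adjusted p = 0.465). Irf4 ran the other way, on 3 treated arrays and 0 corn oil arrays, and was at least 1.37-fold higher with carbon tetrachloride (limma adjusted p = 0.723). Tnfrsf17 and Irf4 each entered the test only through the group in which they were brighter, so their directions are no evidence on these cells. Jchain and Cd79a had no probe. Their part in the result was not tested.

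Sel1l, the scaffold of the HRD1 ubiquitin ligase, was at -0.65, -0.68 and -0.84 with carbon tetrachloride, against -0.60, -0.63 and -0.64 with corn oil. The treated values lay just below, with replicate 3 lowest. The difference was -0.10 ± 0.07 (limma adjusted p = 0.836), and its second probe showed -0.0019 ± 0.12.

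**Figure D3:**
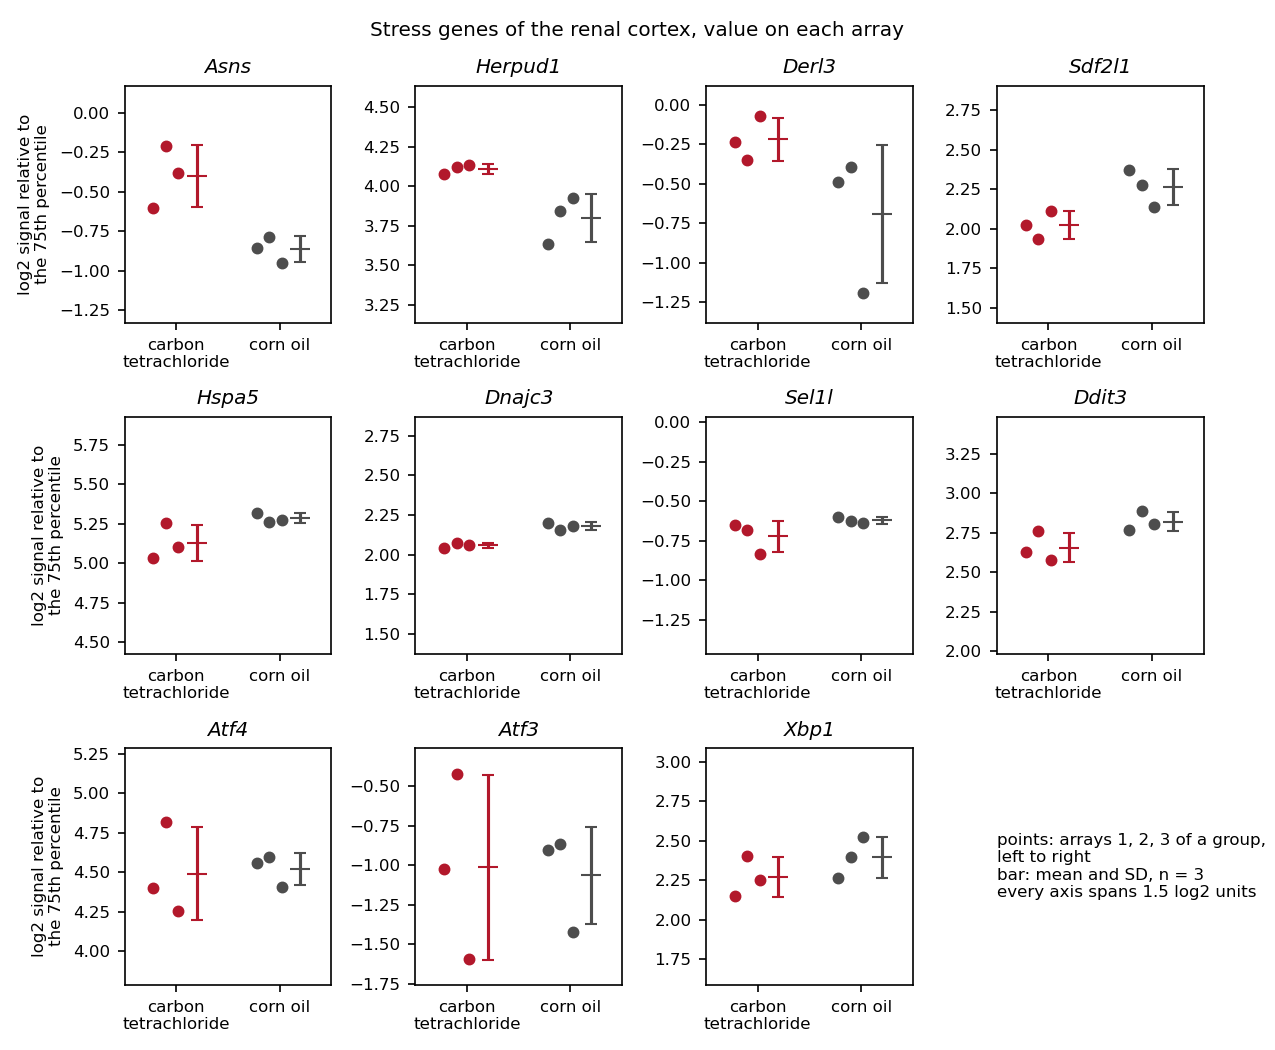
log2 signal relative to the 75th percentile on each array (y axis, spanning 1.5 log2 units in every panel) for 11 stress genes, carbon tetrachloride left and corn oil right; points are arrays and bars are the mean and SD (n = 3). The groups do not overlap for Asns, Herpud1, Derl3, Sdf2l1, Hspa5, Dnajc3, Sel1l and Ddit3, and Atf4, Atf3 and Xbp1 overlap.

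At the probe used, the groups overlapped for all 3 sensors, and the sensors' median of 0.03 ran from -0.10 to 0.10 over the alternatives. Ern1 differed by 0.07 ± 0.18, Eif2ak3 by 0.03 ± 0.10 and Atf6 by -0.18 ± 0.17, and under normexp with quantile normalization the first 2 became -0.015 and -0.013. The 3 probes of Atf6 did not share a direction, as the other probes gave -0.08 ± 0.11 and 0.17 ± 0.07. At the last of these the groups did not overlap, with higher values in carbon tetrachloride. Ern1 was dim, between -4.63 and -5.04 with carbon tetrachloride and between -4.67 and -5.25 with corn oil.

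Of the transcription factors, 1 had a positive and 3 a negative difference (0 to 2 positive over the alternatives). Ddit3 encodes CHOP, which promotes cell death in prolonged stress. It was at 2.63, 2.76 and 2.58 with carbon tetrachloride, against 2.77, 2.89 and 2.81 with corn oil. The highest treated array lay just below the lowest corn oil array. The difference was -0.16 ± 0.08 (limma adjusted p = 0.798), and the second probe gave -0.17 ± 0.10, with groups that overlapped.

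Atf4, whose protein is made when eIF2 is phosphorylated, was at 4.40, 4.82 and 4.25 with carbon tetrachloride, against 4.56, 4.60 and 4.40 with corn oil. Replicate 2 of carbon tetrachloride was the highest of the 6 arrays and replicate 3 the lowest. The difference was -0.03 ± 0.16 (limma adjusted p = 0.983), and 0.09 with the slide as a block. Atf3, an early stress-induced repressor, spread most of all: -1.02, -0.42 and -1.59 with carbon tetrachloride, against -0.91, -0.87 and -1.42 with corn oil. The corn oil range lay inside the treated range, and the difference was 0.05 ± 0.32 (limma adjusted p = 0.987). Xbp1, whose spliced messenger encodes the active factor, was at 2.15, 2.40 and 2.25 with carbon tetrachloride, against 2.26, 2.40 and 2.52 with corn oil. The groups overlapped, and the difference was -0.13 ± 0.10 (limma adjusted p = 0.845).

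The targets of ATF4 and CHOP had 4 positive and 3 negative differences, with a median of 0.014. The sign of that median turned without corn oil replicate 1 (-0.0085) and with the mean of a gene's probes (-0.010), and it was 0.08 without corn oil replicate 3. Asns, asparagine synthetase, a classic ATF4 target, was at -0.61, -0.21 and -0.38 with carbon tetrachloride, against -0.86, -0.79 and -0.95 with corn oil. Every treated array lay above every corn oil array, and replicate 2 was the highest. The difference was 0.46 ± 0.12, a fold of 1.38 with a 95% interval of 1.13 to 1.68 (limma unadjusted p = 0.00738, adjusted p = 0.734). Over the alternatives it ranged from 0.37 to 0.57 with an unadjusted p from 0.00239 to 0.0271, and the adjusted p was never below 0.628.

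The other ATF4-branch genes were spread about 0. Psat1, an enzyme of serine synthesis that responds to ATF4 with Asns, differed by 0.014 ± 0.10. Trib3, a pseudokinase that feeds back on CHOP, differed by -0.27 ± 0.19, with dim values from -4.14 to -4.53 with carbon tetrachloride and from -3.77 to -4.42 with corn oil. Sesn2, a leucine sensor of the mTORC1 pathway, differed by 0.13 ± 0.11. Ppp1r15a, the GADD34 subunit that reverses eIF2 phosphorylation, differed by 0.09 ± 0.07, with 0.11 ± 0.08 from its second probe. Chac1, which degrades glutathione, differed by -0.03 ± 0.12, and Vldlr, a lipoprotein receptor, by -0.01 ± 0.13, and the sign of both changed under at least 1 alternative.

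Probes of 1 gene were compared on the same animals; whether they overlap in sequence was not examined. Of 48 probes for 30 genes, 46 were tested, and 14 genes had more than 1. In 10 of those 14 all probes had the same sign, including Herpud1, Derl3, Dnajb9 and Ppp1r15a on the positive side and Sdf2l1, Ddit3 and Hsp90b1 on the negative side. The 4 that differed were Atf6, Dnajb11, Hyou1 and Psat1. Herpud1 and Derl3 had groups that did not overlap at their second probe as well. For Sdf2l1, Ddit3 and Sel1l the groups overlapped at the other probes.

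**Figure D4:**
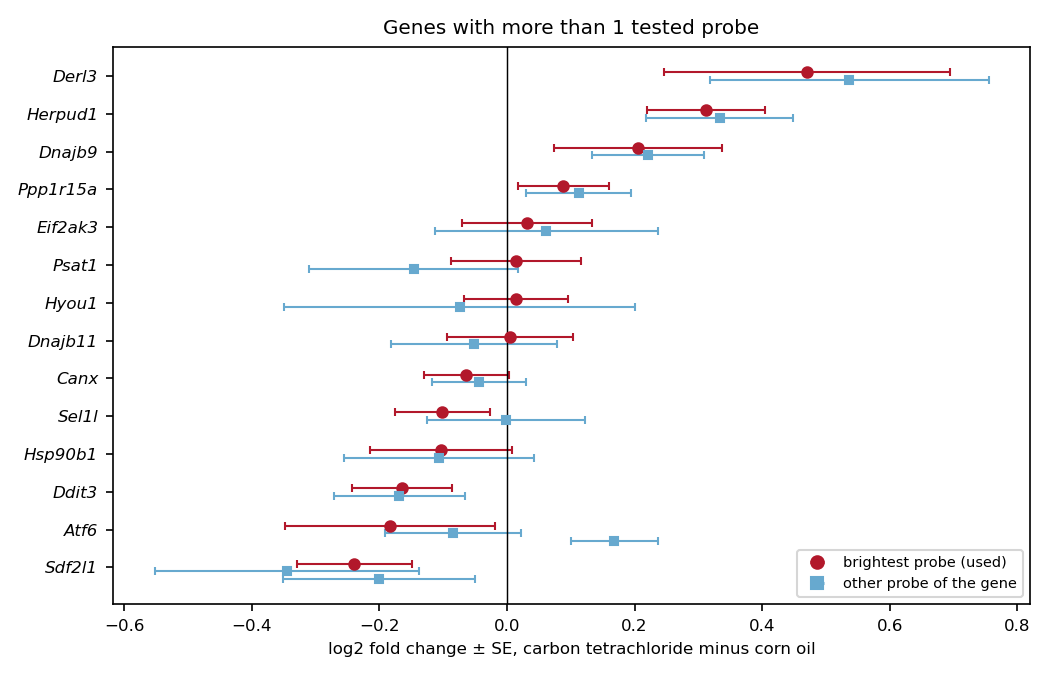
log2 difference ± SE (x axis, carbon tetrachloride minus corn oil, n = 3 per group) for the probes of the 14 stress genes with more than 1 tested probe; circles are the brightest probe, used in the text, and squares are the others. The probes of Herpud1 give 0.31 and 0.33, those of Derl3 0.47 and 0.54, and those of Atf6 lie on both sides of 0.

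The arrays did not rank the genes alike. Carbon tetrachloride replicate 2 held the highest value for 9 genes, replicate 3 for 5 and replicate 1 for 1, and among corn oil arrays replicate 1 held it for 8, replicate 3 for 6 and replicate 2 for 1. The treated order of replicate 2 above 1 above 3 occurred in 8 of 30 genes, Atf4, Atf3, Ddit3, Chac1 and Ppp1r15a among them. The SD was larger with carbon tetrachloride for 17 genes and larger with corn oil for 13. Median SDs were 0.126 with carbon tetrachloride and 0.109 with corn oil. The whole range over the 6 arrays ran from 0.098 log2 units for Pdia6 to 1.17 for Atf3, with a median of 0.374.

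Genes with and without the stress elements were set side by side. The 11 tested genes with an ERSE or ERSE-II had 4 positive and 7 negative differences and a median of -0.016, and the 14 with neither had 6 positive and 8 negative and a median of -0.018. Derl3 and Dnajc3, both with an ERSE, lay at 0.47 and -0.12. Of the genes with a CARE, Herpud1 had a positive difference, and Chac1 and Trib3 had negative ones.

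Of 77 further genes of these pathways, 70 had a probe and 68 were tested, with 43 positive and 25 negative differences and a median of 0.03. None had an adjusted p under 0.05 in limma, and 6 had an unadjusted p under 0.05, 4 positive (3.67% of all transcripts) and 2 negative (2.63%). Among the 66 genes well above background on all 6 arrays, which leaves out Fgf21, the counts were 3 and 2. Folding and translocation genes had 11 positive of 17, degradation genes 6 of 10, eIF2 kinases and their regulators 5 of 6, membrane-bound transcription factors and proteases 3 of 6, further ATF4 and CHOP targets 10 of 17, and cytosolic aminoacyl-tRNA synthetases 8 of 12.

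In the folding list the smallest p belonged to Sil1, an exchange factor of BiP, at 0.21 ± 0.07, and to Sec61a1, the channel of the translocon, at 0.20 ± 0.07. Both had groups that did not overlap (limma adjusted p = 0.772 each). Os9 and Erlec1, lectins of the degradation pathway, differed by 0.09 ± 0.08 and 0.06 ± 0.07. Eif2b5, a subunit of the exchange factor that phosphorylated eIF2 blocks, differed by 0.09 ± 0.06, and Ppp1r15b, a constitutive eIF2 phosphatase subunit, by 0.13 ± 0.15. Among membrane-bound factors, Creb3l3, known from liver and gut, differed by -0.37 ± 0.15 (limma adjusted p = 0.791) and the protease Mbtps2 by -0.21 ± 0.12.

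Among further ATF4 targets, Fgf21, a stress hormone, was well above background on 3 treated arrays and on 0 corn oil arrays. Its level was -5.33, -5.29 and -5.02 with carbon tetrachloride, against -6.61, -5.52 and -6.58 with corn oil. That makes it at least 1.58-fold higher with carbon tetrachloride, measured against the dimmest signals well above background (limma adjusted p = 0.768). It entered the test only through the carbon tetrachloride arrays. Shmt2, the mitochondrial enzyme of serine and glycine exchange, was at 3.65, 3.60 and 3.85 with carbon tetrachloride, against 3.49, 3.45 and 3.48 with corn oil. Its groups did not overlap, and the difference was 0.23 ± 0.08 (limma adjusted p = 0.788). Sars1 and Yars1, tRNA synthetases, differed by 0.15 ± 0.09 and -0.08 ± 0.07.

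Markers of T cells, which the cortex can hold, moved with the groups. All 8 had lower values with carbon tetrachloride, with groups that did not overlap, and 0 passed the adjusted threshold. The 5 well above background on all 6 arrays (Cd3g, Cd3d, Cd8a, Cd8b and Cd247) differed by -1.01 to -0.53, with unadjusted p from 3e-05 to 0.0426 in limma. The other 3 entered the test only through corn oil: Cd3e, Cd2 and Cd5 were well above background on 2, 1 and 0 treated arrays. The summed level of all 8 T cell markers, these 3 included, was 1.41 to 1.54 with carbon tetrachloride and 2.18 to 2.64 with corn oil. Their part in the values of the stress genes was not tested. Of 6 liver markers 3 were tested, and Ttr and Serpina1 were well above background on 0 arrays. Alb, also not tested, was well above background on 2 treated arrays and 0 corn oil arrays. Apoa1 and Hpx were dim but well above background on 6 of 6 arrays, with groups that did not overlap and differences of 0.80 ± 0.24 and 0.60 ± 0.21 (limma adjusted p = 0.768 and 0.773), and Fgb differed by -0.14 ± 0.16. Of 6 adrenal markers 2 were tested, Cyp17a1 at -0.16 ± 0.20 and Hsd3b1 at 0.26 ± 0.22. Star, Cyp11b1 and Cyp11b2 were well above background on 0 arrays, and Dbh on 2 treated arrays and 1 corn oil array. The part of liver or adrenal RNA in the values of the stress genes was not tested either.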

How the data were processed

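RNA of 6 renal cortices was measured on Agilent 1-colour arrays. The scanner files hold the spot intensity deposited by the authors, extracted with Agilent Feature Extraction 10.7.1.1 per the file headers (10.7 per the submitters' processing notes). The value table deposited by the authors is also an intensity: each column equals the processed signal divided by 1 factor, 1015 to 1092 per array, with column medians of 0.116, 0.115 and 0.111 for carbon tetrachloride replicates 1 to 3 and 0.118, 0.111 and 0.114 for corn oil replicates 1 to 3. Its scale, centring and direction are therefore all known, and 0 of its columns belong to other samples.

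Log2 processed signals were reduced by the log2 of each array's 75th percentile. The 1439 control spots and spots with an outlier flag (0 to 25 per array) were left out, and 1 spot was saturated. Accessions without version were matched to RefSeq genes of GRCr8, which named 28206 of 61537 probes (45.8%). The other 33331 kept their accession. Each gene was represented by its brightest probe, and was tested where all 3 arrays of either group were well above background. The fit was limma 3.58.1 in R 4.3.3 (lmFit, eBayes). The number of arrays limits the precision. For a gene well above background on 0 arrays of a group, the fold uses a floor. On each dim array its value, or the lowest value well above background if that is higher, was averaged and set against the brighter mean. This fold is a point estimate without sampling error, so the true fold may be smaller. The code was tested on simulated data.

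The members and lists were chosen with earlier results of these data known. Values on each array are given for genes with an unadjusted p under 0.05 or with groups that do not overlap, and for Hspa5, Ddit3, Atf4, Atf3 and Xbp1; of each further list the 2 genes of smallest p are named. Gene names and mean signals, on which the plan had counted, were replaced by accessions and by the median spot and background signals (normexp, offset 50). Alternatives were other scalings, filters and probe rules, the deposited table, robust fitting with an intensity trend, a block for replicate number or for slide, and leaving out each array. Same-numbered rats did not deviate together (r of -0.02, -0.10 and -0.08), so the numbers were not treated as pairs.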

Additional observations from a re-analysis of the deposited data

How the results depend on the processing

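Of 30 stress genes, 0 passed the adjusted threshold under any of the 16 alternatives, and the lowest adjusted p was 0.60. Transcripts past it over all genes numbered 1, and 0 with normexp, with no filter, with all 6 arrays above background, with a robust trended fit, with a replicate block and with a slide block; without 1 array they ranged from 0 to 2. The replicate block left 2 stress genes, Asns and Herpud1, with an unadjusted p under 0.05, in place of 3; the robust trended fit gave 5, and leaving out 1 array gave 2 to 4. The labels link the samples only by a number, and 0 of 6 arrays correlated best with their own number. The median over the genes was -0.0271 with the mean of a gene's probes, and -0.0500 to -0.0121 without 1 array. Of the 30 genes, 18 kept their sign throughout. The filters, the robust trended fit and the replicate block could not alter a sign, as they leave the differences of these genes unchanged. Sign changes were, under normexp, Pdia6 0.0190, Eif2ak3 -0.0134, Ern1 -0.0148 and Chac1 0.0104; under quantile normalization, Dnajb11 -0.0009; with the mean of the probes, Hyou1 -0.0301, Dnajb11 -0.0232 and Psat1 -0.0660; with the slide as a block, which equals leaving out carbon tetrachloride replicate 3, Dnajb11 -0.0743, Calr 0.0036, Atf4 0.0902 and Chac1 0.0839. Without 1 array the ranges were -0.2440 to 0.3405 for Atf3, -0.1921 to 0.0902 for Atf4, -0.0565 to 0.0193 for Calr, -0.1218 to 0.0839 for Chac1, -0.0934 to 0.0874 for Creld2, -0.0743 to 0.0771 for Dnajb11, -0.0330 to 0.1027 for Eif2ak3, -0.0959 to 0.1933 for Ern1, -0.0455 to 0.0602 for Hyou1, -0.0317 to 0.0175 for Pdia6, -0.0788 to 0.0836 for Psat1 and -0.0959 to 0.1108 for Vldlr. Of the 18 other genes, 6 (Asns, Ddit3, Dnajc3, Herpud1, Hspa5 and Sdf2l1) stayed within 1.5 times of their value without any 1 array, and 12 did not: Atf6 (-0.31 to -0.03, nearest 0 without carbon tetrachloride replicate 2), Hsp90b1 (-0.17 to -0.01, nearest 0 without carbon tetrachloride replicate 3), Pdia4 (-0.36 to -0.11) and Trib3 (-0.43 to -0.10), each lowest or highest without corn oil replicate 1 or 3, Sesn2 (0.05 to 0.20), Derl3 (0.22 without corn oil replicate 3 to 0.62), Dnajb9 (0.13 to 0.31), Ppp1r15a (0.05 to 0.12), Sel1l (-0.14 to -0.05), Xbp1 (-0.20 to -0.06), Pdia3 (-0.11 to -0.03) and Canx (-0.10 to -0.04). The cause was not tested. All 30 genes were well above background on every array, but the dim Trib3 was -0.15 under normexp and -0.24 under quantile normalization alone, and the dim Ern1 -0.0148 and 0.11, in place of -0.27 and 0.07. With 3 arrays per group the precision is limited.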

Other observations

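Pdia5, a disulfide isomerase among the further folding genes, was chosen after its values were seen. It was at -0.35, -1.89 and -0.19 with carbon tetrachloride, against 0.18, -0.05 and -0.32 with corn oil. Carbon tetrachloride replicate 2 lay far below the other 5 arrays, the groups overlapped, and the difference was -0.75 ± 0.46 (SE, n = 3 per group; limma adjusted p = 0.833).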
